A study of Homo sapiens with 36 samples.

Results

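The response to oxaliplatin (OXPT) was measured by RNA-seq in FBXW7-/- HCT-116 cells (KO) that had been treated with the degrader #11. The members were chosen by their titles, 3 libraries of KO cells with PROTAC #11 and OXPT and 3 of KO cells with PROTAC #11 alone, 6 of the 36 libraries in the series. HCT-116 cells derive from a human colorectal carcinoma. FBXW7 is the part of an SCF ubiquitin ligase that binds the proteins to be degraded. The WT and KO cells came from a supplier, and whether the KO line is a single clone is not given in the sources used here. All 6 libraries came from cells that carried a control esiRNA (esiCT) and received #11 for 48 h, and in 3 of them OXPT was present at 50 µM for the last 24 h. Untreated cells received solvent. The entries of the labels differ on the dose of #11, which is 1 µM in the treatment entry and 10 µM in the description. #11 is a PROTAC, a molecule that joins a ligand of class IIa histone deacetylases (HDACs) to a ligand of the VHL ubiquitin ligase, so that it acts on the proteins. Its effect on their mRNAs was not tested here. The same OXPT treatment was applied to KO cells with esiCT alone, to KO cells with esiRNA against HDAC4 (esiHDAC4) and to WT cells, each with 3 untreated and 3 OXPT libraries, and these were used for comparison. For those 6 WT libraries the title names a control RNA and the treatment entry esiHDAC4, so that their esiRNA is not settled. A further 12 WT libraries entered no comparison, since their titles and treatment entries contradict each other on OXPT. The comparison asks which genes OXPT changed in KO cells once class IIa HDACs were being degraded, and whether that response differed from those of the other cells.

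Platinum drugs form adducts on DNA that block replication and transcription. p53 is then stabilised and raises genes that hold the cell cycle, repair DNA, feed back on p53 itself or promote apoptosis. Genes of G2 and mitosis fall through p21 and the DREAM repressor, which binds their promoters at the CHR element. The integrated stress response works through the factor ATF4, which raises genes for amino acid synthesis and transport. The AP-1 factors JUN and FOS and other immediate early genes follow growth factor and stress kinases. HCT-116 cells carry functional p53.

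The 6 libraries held 12436981 to 20527222 counts on genes, and the 24 libraries of the 8 groups had a median of 14510758. All 12 epithelial markers but TFF3 were detected, with a summed level of 6480 to 6670 CPM (counts scaled to library size) in untreated and 9850 to 12500 CPM in OXPT libraries. The 12 immune markers summed to at most 6.56 CPM, CD3D being at 0 in all 6 libraries, and the 13 fibroblast and endothelial markers to at most 67.6 CPM, with THY1 at 0. Of the 2 markers of the last list that could be tested, COL1A1 and ACTA2, only ACTA2 was called, and it shares 36.2% of its exonic bases with other genes, FAS among them. Untreated replicate 3 stood apart from the other 2 untreated libraries. There the DNA replication genes summed to 2217 CPM against 4012 and 4058, and the mitotic genes to 2033 CPM against 2820 and 2714. Among the other groups, the library labelled WT untreated replicate 3 held 6977 CPM of p53 targets, against 1843 and 1644 in the other WT untreated libraries and 8960 to 14512 in the WT OXPT libraries. In KO esiCT OXPT replicate 3 the nuclear genes of oxidative phosphorylation (OXPHOS) summed to 24757 CPM, against 11192 and 12787 in the other 2 replicates. Without KO esiCT OXPT replicate 3, 1002 genes were called in KO esiCT cells in place of 1398.

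In KO #11 cells 1175 genes responded to OXPT, 734 with a higher and 441 with a lower mRNA level. The quasi-likelihood test of edgeR was used, and genes were called when the fold change exceeded 1.5 and the p adjusted by Benjamini-Hochberg was under 0.05. These calls are 9.51% of the 12356 genes tested, 5.94% higher and 3.57% lower, and 2900 reached an unadjusted p below 0.05. All genes tested had a median log2 fold change of -0.002, and that of the called genes was 1.08 for those higher and -1.23 for those lower. Changes over 4-fold were called for 99 genes upwards and for 82 downwards. In RNA from a whole culture, fewer cells with an mRNA and less of it per cell cannot be told apart. No label says whether the 3 replicates of a group were separate cultures, so that p-values measure the spread between these libraries. The count was sensitive to single libraries. It was 602 and 638 without untreated replicates 1 and 2, and 555 and 574 without OXPT replicates 1 and 2. Without WT untreated replicate 3, which is not among the 6, it was 1494. DESeq2 called 1557 genes. With the replicate number as a block in a fit of the 6 libraries alone 3011 were called, and the same fit without the block called 2636.

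Many of the genes with the highest fold changes were p53 targets. The 12 highest and the 12 lowest were taken among called protein-coding genes whose libraries did not overlap and whose mean reached 64 counts untreated and with OXPT, so that a few genes of low level with larger changes appear only with their lists. The OXPT and untreated libraries did not overlap for 42.5% of all genes tested and for 1171 of the called genes. TP53I3, a quinone oxidoreductase, stood at 34.0, 41.7 and 29.6 CPM in the untreated libraries and at 562, 683 and 356 CPM with OXPT. Every OXPT library lay above every untreated one, and the log2 fold change was 3.93 (SE, the standard error, 0.52, adjusted p = 4.9e-05). It lies inside FAM228B, and counting without strand leaves out reads where both have exons, 3.5% of its exonic bases. FDXR, ferredoxin reductase (ENSG00000161513.12, chromosome 17 of GRCh38, 74862497 to 74873031), rose from 104, 116 and 101 CPM to 932, 993 and 752 CPM. Its log2 fold change was 3.06 (SE 0.25, adjusted p = 3e-07). CDKN1A, the cyclin-dependent kinase inhibitor p21, went from 400, 424 and 519 CPM to 2760, 2580 and 2510 CPM, a log2 fold change of 2.55 (adjusted p = 0.00014). MDM2, the ubiquitin ligase that removes p53, went from 58.8, 48.0 and 58.9 CPM to 327, 302 and 258 CPM, a log2 fold change of 2.42 (SE 0.50, adjusted p = 0.0038). The 3 OXPT libraries differed little from each other in CDKN1A, whereas in TP53I3 replicate 3 was the lowest.

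The other genes among the 12 with the highest fold changes also rose without overlap between the groups, which was a condition of their choice. PTAFR, a receptor of platelet-activating factor, rose by 3.39 on the log2 scale, from 4.37 to 6.31 CPM up to 52.3 to 55.8 CPM. GRIN2C, a glutamate receptor subunit, rose by 3.22 and INKA2, an inhibitor of the kinase PAK4, by 2.72. SESN1, a sestrin that restrains mTORC1, rose by 2.72, PHLDA3, an inhibitor of AKT, by 2.63, and CD82, a tetraspanin, by 2.59. SERPINB5 (maspin) rose by 2.57. FAS and POLH are described with their groups. For each of these 12 genes the call held in all 34 alternative settings, which include leaving out each of the 24 libraries in turn.

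Of the 23 p53 targets of arrest and feedback that could be tested, of 25 listed, 17 rose and none fell, and their median log2 fold change was 1.71. Besides those named, SFN (stratifin), which holds cyclin B outside the nucleus, rose by 2.21, and PPM1D, the phosphatase WIP1 that acts against p53, rose by 1.87. FBXO22, a ubiquitin ligase subunit, rose by 1.28. The members not called were CCNG1 (0.62), E2F7 (0.64), GDF15 (0.94), GADD45A (-0.03), CCNG2 (-0.14) and SESN2 (-0.42), given as log2 fold changes. The count was 17 as well without OXPT replicate 3 or untreated replicate 3, and it ran from 16 to 17 when any of the 6 libraries was left out. Between libraries of the same number the median was 1.57, 1.51 and 1.66. In KO esiCT cells 18 members rose, in KO esiHDAC4 cells 18 and in WT cells 16, with medians of 2.04, 1.98 and 1.72. Called higher there were 6.23%, 6.44% and 5.10% of all genes tested. Without WT untreated replicate 3, 19 members rose in WT cells and the median was 1.99. GADD45A, SESN2 and GDF15 had log2 fold changes of 1.45, 1.63 and 2.62 in KO esiCT and 1.5, 1.65 and 3.09 in KO esiHDAC4 cells. In WT cells they were 0.16, -0.24 and 0.67. No difference between responses was called for the list by edgeR on all 24 libraries. In a fit of the 18 KO libraries GADD45A and SESN2 were called lower in KO #11 than in both other KO states. The summed level of the list in KO #11 cells was 2441 to 2545 CPM untreated and 8421 to 9072 CPM with OXPT. Untreated, it was 1555 to 2048 CPM in KO esiCT and 1606 to 1831 CPM in KO esiHDAC4 cells. In WT it was 1843 and 1644 CPM in untreated replicates 1 and 2 and 6977 CPM in replicate 3. The sums with OXPT overlapped, at 7949 to 14512 CPM in the other cells.

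The promoter of FDXR is shown because it was 1 of 3 in this list, with RPS27L and PLK2, that hold the p53 consensus decamer in the 300 bases from 250 before to 50 after the start of the gene in RefSeq. It was found in 3 of 19 promoters of the list (15.8%), against 483 of 9475 (5.10%) for all genes tested with a RefSeq promoter and 43 of 562 (7.65%) for the genes called higher. The promoter lies at chr17:74872945-74873244 on the minus strand of GRCh38.p14, the capitals mark the decamer, 11 bases upstream of the start.
FDXR: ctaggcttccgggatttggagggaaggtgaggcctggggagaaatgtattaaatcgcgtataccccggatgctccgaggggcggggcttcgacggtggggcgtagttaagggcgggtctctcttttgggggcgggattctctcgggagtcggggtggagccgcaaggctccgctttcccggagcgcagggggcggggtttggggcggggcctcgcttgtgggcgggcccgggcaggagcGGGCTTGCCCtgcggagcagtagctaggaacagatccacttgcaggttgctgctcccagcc

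Genes of apoptosis rose in part. BAX, which permeabilises the outer mitochondrial membrane, was at 106, 119 and 93.1 CPM untreated and at 542, 529 and 386 CPM with OXPT, a log2 fold change of 2.20 (SE 0.34, adjusted p = 0.00026). BAK1, a protein of the same function, rose by 1.03 (adjusted p = 0.034), but this call was lost without any of 5 of the 6 KO #11 libraries. These 2 of 15 tested members of the BCL2 family (13.3%) rose and none fell, with a median of 0.20, against 5.94% of all genes called higher. BBC3, which encodes the BH3-only protein PUMA, was at 68.2, 71.6 and 58.4 CPM and at 163, 170 and 127 CPM. The groups did not overlap, as in 42.5% of all genes tested, but the log2 fold change of 1.21 (standard error 0.40) did not pass, with an adjusted p of 0.062. With the replicate number as a block it passed (adjusted p = 0.0362), as it did with DESeq2 (adjusted p = 0.0297). PMAIP1, which encodes NOXA, was at 118, 150 and 135 CPM untreated and at 56.5, 83.3 and 210 CPM with OXPT. Its OXPT libraries lay on both sides of the untreated ones, and the log2 fold change was -0.20 (SE 0.39, adjusted p = 0.803). With number 3 left out of every group it was called lower, at -0.99 (adjusted p = 0.0149). In the other cells the log2 fold changes of PMAIP1 were 1.22, 0.90 and 1.02, for KO esiCT, KO esiHDAC4 and WT in this order, which is kept below.

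Among 21 death receptor and caspase genes 5 (23.8%) rose, against 5.94% of all genes called higher, none fell and the median was 0.21. FAS, the receptor of FAS ligand, rose by 2.77 on the log2 scale, from 7.55, 5.05 and 7.68 CPM to 46.4, 48.2 and 43.3 CPM (standard error 0.40, adjusted p = 0.00011). TNFRSF10C, a decoy receptor of TRAIL, rose by 2.94 from 1.11 to 1.29 CPM up to 7.45 to 10.4 CPM, and TNFRSF10D, the other decoy, rose by 1.01. TNFRSF10A, a signalling receptor of TRAIL, rose by 0.92, and AEN, a nuclease of apoptosis, by 1.21. Without single KO #11 libraries 2 to 4 members were called. TNFRSF10B (0.27), CASP8 (0.21) and CASP9 (-0.01) did not pass.

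Single repair genes moved both ways. POLH, the translesion polymerase eta that copies past platinum adducts (ENSG00000170734.12, chromosome 6, 43576185 to 43620523), was at 16.1, 17.9 and 17.9 CPM untreated and at 103, 104 and 100.0 CPM with OXPT. Its libraries were close to each other within both groups, and it rose by 2.57 on the log2 scale (SE 0.20, adjusted p = 2.9e-07). DDB2, which finds lesions for nucleotide excision repair, rose from 50.2, 50.5 and 44.1 CPM to 207, 214 and 243 CPM, a log2 fold change of 2.20. PCNA, the sliding clamp of replication and repair, rose by 1.74 (adjusted p = 4.9e-06), from 169 to 220 CPM up to 582 to 745 CPM. In excision repair and translesion synthesis 3 of 26 genes rose, these being POLH, DDB2 and XPC, UVSSA fell and the median was -0.06. The calls are 15.4% of this list, against 9.51% of all genes tested. The call of XPC (1.05) held in only 6 of the 24 fits that leave out a library. Of 8 p53 targets of repair 4 rose and 2 fell, FANCC by 0.96 and GTSE1 by 0.68 on the log2 scale. POLH, DDB2 and XPC are counted here as well. In homologous recombination and the Fanconi pathway 1 of 33 genes rose, RAD51C (0.86), and 2 fell, FANCC again among them, with a median of -0.35. These calls are 9.09% of the list, near the 9.51% of all genes tested. RAD51B, a recombination factor, went from 5.11, 4.10 and 4.45 CPM to 0.627, 0.673 and 0.320 CPM, a log2 fold change of -3.05 (SE 0.34, adjusted p = 7.3e-06). BRCA1 (-1.49) and BRCA2 (-1.07) did not pass (adjusted p = 0.220 and 0.475).

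Among the 47 DNA replication genes, PCNA rose, 1 other member fell, and the median log2 fold change was -0.25. These calls are 4.26% of the list, against 9.51% of all genes tested. The median was -0.47 and -0.48 between the libraries numbered 1 and 2, but 0.37 between those numbered 3, where the untreated library had the low level given above. With number 3 left out of every group 14 members fell, and 1510 genes were called lower in all, in place of 441. In each of the other cells 8 members fell, where 5.08%, 5.54% and 5.60% of all genes were called lower. The medians were -0.62, -0.74 and -0.73, but the counts moved with single libraries. Without KO esiCT OXPT replicate 3, 2 fell in KO esiCT (median -0.41) and 12 in KO esiHDAC4 cells. Without WT untreated replicate 3, 14 fell in KO esiHDAC4 and 13 in WT cells (median -0.91 in WT). In G1 and S control, 1 of 22 genes (4.55%) was called, E2F2, which fell by 1.16 on the log2 scale.

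Some genes of G2 and mitosis fell. Of 42 tested, 8 fell and none rose, with a median log2 fold change of -0.86, against 3.57% of all genes called lower. PLK1, the Polo-like kinase of mitotic entry (ENSG00000166851.15, chromosome 16, 23677656 to 23690367), was at 123, 110 and 60.5 CPM untreated and at 45.6, 45.5 and 34.4 CPM with OXPT. The log2 fold change was -1.23 (SE 0.25, adjusted p = 0.0034), and untreated replicate 3 was the low one. CCNB2, a mitotic cyclin, went from 70.5, 70.4 and 43.3 CPM to 20.5, 24.2 and 36.0 CPM, a log2 fold change of -1.19. CENPA, the histone variant of centromeres, fell by 1.29 and CDC25B, the phosphatase that activates CDK1, by 1.15. The others called were HMMR, CDC20, CCNB1 and AURKA. CDK1 (0.09) and TOP2A (-0.31) did not pass. The median was -1.06, -0.86 and -0.48 for the libraries numbered 1 to 3, and the count ran from 4 to 10 when any of the 6 libraries was left out. With number 3 left out of every group 25 members fell, and 1510 genes were called lower in all, in place of 441.

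Of these 42 genes 18, 24 and 21 fell in the other cells, with medians of -1.31, -1.47 and -1.43, and called lower there were 5.08%, 5.54% and 5.60% of all genes. The levels with OXPT overlapped, with sums of 1579 to 1768 CPM in KO #11 and 1284 to 2156 CPM in the other cells. The untreated sums did not overlap, being 2033 to 2820 CPM in KO #11 and 3365 to 5415 CPM in the other cells. The study names no batch. In levels set against those of other cells, above and below as well as here, #11 and a separate preparation of its libraries cannot be told apart. The difference of the response from each of the other cells was positive for 39, 39 and 42 of the 42 genes. The median difference was 0.52, 0.77 and 0.73, against -0.02, 0.0 and 0.08 over all genes tested. No single gene of the list passed in these tests. With number 3 left out of every group the median differences of the list were smaller, at 0.21, 0.35 and 0.5. In that setting 2 members were called, both as higher against WT.

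The promoters of 3 called mitotic genes are shown because the CHR element, TTTGAA on either strand, was found in 24 of 36 promoters of the list (66.7%), against 847 of 9475 (8.94%) for all genes tested. Among the genes called lower it was 41 of 347 (11.8%), and among the called genes of the list 5 of 7. The capitals mark TTTGAA, which begins 29 bases upstream of the start in PLK1 (chr16:23678639-23678938, plus strand) and CCNB2 (chr15:59104896-59105195, plus strand) and 18 bases upstream in CENPA (chr2:26785806-26786105, plus strand), in RefSeq on GRCh38.p14.
PLK1: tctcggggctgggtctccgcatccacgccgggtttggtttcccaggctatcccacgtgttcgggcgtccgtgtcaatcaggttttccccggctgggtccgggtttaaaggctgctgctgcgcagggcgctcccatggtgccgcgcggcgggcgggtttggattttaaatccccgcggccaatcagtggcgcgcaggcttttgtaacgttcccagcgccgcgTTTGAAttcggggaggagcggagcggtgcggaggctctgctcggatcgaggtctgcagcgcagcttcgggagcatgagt
CCNB2: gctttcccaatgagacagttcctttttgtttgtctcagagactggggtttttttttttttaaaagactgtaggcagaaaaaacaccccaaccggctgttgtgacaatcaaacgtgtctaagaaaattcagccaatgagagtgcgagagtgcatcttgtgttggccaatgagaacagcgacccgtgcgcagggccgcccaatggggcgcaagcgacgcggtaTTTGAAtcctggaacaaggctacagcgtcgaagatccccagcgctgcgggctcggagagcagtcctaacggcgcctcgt
CENPA: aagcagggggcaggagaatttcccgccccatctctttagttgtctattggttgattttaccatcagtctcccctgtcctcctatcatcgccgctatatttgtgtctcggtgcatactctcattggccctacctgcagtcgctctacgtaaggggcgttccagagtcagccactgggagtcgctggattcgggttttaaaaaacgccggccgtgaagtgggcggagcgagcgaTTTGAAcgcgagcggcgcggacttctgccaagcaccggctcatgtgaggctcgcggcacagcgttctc

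The genes of the ATF4 stress response formed the list with the lowest median. All 23 tested members had a negative log2 fold change, 10 fell, against 3.57% of all genes called lower, and the median was -1.5. SLC7A11, the cystine transporter, went from 74.2, 49.3 and 90.5 CPM to 4.31, 3.29 and 11.2 CPM, a log2 fold change of -3.51 (SE 0.84, adjusted p = 0.010). TRIB3, a pseudokinase that inhibits AKT (ENSG00000101255.12, chromosome 20, 362835 to 397559), went from 387, 370 and 217 CPM to 55.5, 54.1 and 64.7 CPM, a log2 fold change of -2.48 (SE 0.61, adjusted p = 0.013). In both genes all OXPT libraries lay below all untreated ones. AARS1, alanyl-tRNA synthetase, went from 633, 565 and 656 CPM to 169, 175 and 186 CPM, a log2 fold change of -1.81 (SE 0.33, adjusted p = 0.0014). ASNS, asparagine synthetase, fell by 2.89, but it shares 49.3% of its exonic bases with another annotated gene, so that its level, 7.11 to 12.2 CPM untreated, is of the reads left over. PHGDH, which opens serine synthesis, fell by 1.54, PSAT1, the next enzyme of that pathway, by 1.88, and STC2, a secreted glycoprotein, by 2.33. SLC7A5, a leucine transporter, CEBPG and WARS1 were also called. ATF4 itself (-0.61), DDIT3 (-2.55) and CHAC1 (-2.44) did not pass, with adjusted p of 0.342, 0.062 and 0.095.

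Outside the list, 2 genes of amino acid and mitochondrial metabolism were among the 12 lowest. SLC7A1, a transporter of cationic amino acids, went from 290.0, 287 and 208 CPM to 56.9, 55.5 and 60.9 CPM, a log2 fold change of -2.18 (adjusted p = 4.6e-05). PCK2, mitochondrial phosphoenolpyruvate carboxykinase, fell by 2.52. The medians of the ATF4 list were -1.59, -1.49 and -1.10 for the libraries numbered 1 to 3. With the replicate number as a block the count was 15. It was 3 without OXPT replicate 1 or 2, 10 without OXPT replicate 3, and 6, 7 and 9 without untreated replicates 1 to 3. It was 19 without WT untreated replicate 3. Over all genes 693 were called lower with the block and 677 without that library, in place of 441. The calls of SLC7A11 and TRIB3 were lost without OXPT replicate 1 or 2.

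Elsewhere 1, 0 and 4 members fell and none rose, with medians of -0.21, 0.28 and -0.99, where 5.08%, 5.54% and 5.60% of all genes were called lower, and the WT value rested on the library named above. Without WT untreated replicate 3, 1 fell and 2 rose in WT cells and the median was -0.05, while 2 fell in KO esiCT and 2 rose in KO esiHDAC4 cells. The untreated levels stood apart. The list summed to 7550 to 9228 CPM in untreated KO #11 cells, against 3819 to 5465, 3280 to 4264 and 4164 to 4721 CPM in the others, the last without WT untreated replicate 3, which held 15868 CPM. With OXPT the sums were 3400 to 4092 CPM in KO #11 and 3426 to 7068 CPM in the others. TRIB3 shows the same at the level of a gene, with 217 to 387 CPM in untreated KO #11 cells, 39.4 to 92.7 CPM in KO esiCT cells and 33.9 to 52.4 CPM in KO esiHDAC4 cells, and 53.3 to 74.1 CPM in OXPT libraries of the latter 2.

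Promoters with TGATGNAA, a common form of the element bound by ATF4 with C/EBP factors, searched on both strands, are shown for 3 called genes. The letters were found in 13 of 347 promoters of genes called lower (3.75%), in 6 of 562 called higher (1.07%) and in 150 of 9475 in all (1.58%). In the ATF4 list they were in 4 of 20 (20%), those of ASNS, AARS1, CHAC1 and SLC3A2. The capitals mark them 68 bases upstream of the start in ASNS (chr7:97872359-97872658, minus strand), 187 bases upstream and on the opposite strand in AARS1 (chr16:70289457-70289756, minus strand) and from base 8 after the start in SLC7A1 (chr13:29595639-29595938, minus strand), in RefSeq on GRCh38.p14.
ASNS: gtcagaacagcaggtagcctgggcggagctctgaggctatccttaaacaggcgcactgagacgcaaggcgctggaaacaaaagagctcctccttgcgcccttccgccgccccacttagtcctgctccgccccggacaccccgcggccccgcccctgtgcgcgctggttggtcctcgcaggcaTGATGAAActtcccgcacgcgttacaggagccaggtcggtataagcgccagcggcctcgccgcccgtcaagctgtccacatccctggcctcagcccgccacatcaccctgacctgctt
AARS1: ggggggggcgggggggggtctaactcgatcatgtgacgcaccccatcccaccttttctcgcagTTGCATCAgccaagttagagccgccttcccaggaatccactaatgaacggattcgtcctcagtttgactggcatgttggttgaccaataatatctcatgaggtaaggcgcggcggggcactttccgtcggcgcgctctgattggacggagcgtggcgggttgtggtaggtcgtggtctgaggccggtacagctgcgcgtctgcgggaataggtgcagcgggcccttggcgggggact
SLC7A1: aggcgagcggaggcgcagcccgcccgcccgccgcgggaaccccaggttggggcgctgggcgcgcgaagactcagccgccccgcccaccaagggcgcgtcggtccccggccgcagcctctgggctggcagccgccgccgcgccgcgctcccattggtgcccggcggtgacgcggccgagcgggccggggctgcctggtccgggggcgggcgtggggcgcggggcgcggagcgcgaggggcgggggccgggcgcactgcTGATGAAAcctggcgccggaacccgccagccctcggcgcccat

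Most immediate early genes had negative fold changes. Of 32 tested, IER5 rose, 5 fell and 26 had a negative value, with a median log2 fold change of -0.53. Of all genes tested, 5.94% were called higher and 3.57% lower. JUN, the AP-1 subunit (ENSG00000177606.8, chromosome 1, 58776845 to 58784048), was at 259, 268 and 238 CPM untreated and at 45.1, 43.1 and 111 CPM with OXPT. The log2 fold change was -1.94 (SE 0.57, adjusted p = 0.033). EGR1, a zinc finger factor, went from 477, 454 and 366 CPM to 54.2, 49.7 and 191 CPM, a log2 fold change of -2.14 (adjusted p = 0.031). In both genes OXPT replicate 3 was the highest OXPT library and still lay below the untreated ones. EGR3 fell by 2.60, SPRY4, a feedback inhibitor of ERK signalling, by 1.33 and ZFP36, which destabilises mRNAs of immediate early genes, by 1.44. With the replicate number as a block 9 members fell, and 9 fell without WT untreated replicate 3. The count was 19 with number 3 left out of every group and 8 without OXPT replicate 3. It was 2, 2 and 3 without untreated replicates 1 to 3, and 1 without OXPT replicate 1 or 2. Over all genes 1510 were called lower with number 3 left out, in place of 441.

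In the other cells 6, 9 and 4 members rose and 1 fell in each, with medians of 0.77, 0.67 and 0.04. Of all genes, 6.23%, 6.44% and 5.10% were called higher there and 5.08%, 5.54% and 5.60% lower. Without WT untreated replicate 3 9 rose in KO esiCT cells, and 9 rose and 1 fell in WT cells with a median of 0.61. JUN had log2 fold changes of 1.44, 1.91 and 0.60 there, the last being 1.66 without that library. Here too the untreated levels stood apart from those of the other KO cells. JUN was at 238 to 268 CPM in untreated KO #11 cells, against 33.4 to 46.6 CPM in KO esiCT and 22.1 to 32.7 CPM in KO esiHDAC4 cells. With OXPT it was at 43.1 to 111 CPM in KO #11, 65.7 to 175 CPM in KO esiCT and 51.4 to 126 CPM in KO esiHDAC4 cells. The list summed to 4034 to 4971 CPM in untreated KO #11 cells, 1783 to 2408 CPM in KO esiCT, 1623 to 2124 CPM in KO esiHDAC4 and 2509 to 2563 CPM in WT untreated replicates 1 and 2. WT untreated replicate 3 held 6942 CPM, more than any untreated KO #11 library. With OXPT the sums overlapped, at 2617 to 3308 CPM in KO #11 and 2452 to 5949 CPM in the other cells.

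Targets of YAP and TEAD, which answer to cell tension and contact, were looked at after CCN1, CCN2, AMOTL2 and AJUBA had come out of the tests of the difference, so that their count is a description alone. In KO #11 cells none of 18 was called, and the median log2 fold change was -0.13. In the other cells 7, 6 and 4 rose, where 6.23%, 6.44% and 5.10% of all genes were called higher. The count in WT cells was 7 without WT untreated replicate 3. CCN1, a matricellular protein, was at 64.2, 67.4 and 33.6 CPM untreated and at 32.9, 29.1 and 55.4 CPM with OXPT in KO #11 cells. Its groups overlapped, and the log2 fold change was -0.49 (SE 0.49, adjusted p = 0.589). In KO esiCT cells it went from 9.63 to 13.8 CPM up to 53.9 to 156 CPM, and in KO esiHDAC4 cells from 20.8 to 29.4 CPM up to 129 to 259 CPM.

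Long genes had lower fold changes than short ones. The 327 protein-coding genes that span over 300 kb had a median log2 fold change of -0.94 in KO #11 cells, and 35.2% of them were called lower and 1.22% higher. Among the 1998 genes under 10 kb the median was 0.25, and 1.4% were called lower and 8.96% higher. The classes between them followed in order, with medians of 0.16 (10 to 30 kb), -0.08 (30 to 100 kb) and -0.34 (100 to 300 kb). Of the 12 lowest genes 3 belong to the longest class. SMYD3, a methyltransferase of 758 kb, went from 34.0, 38 and 40.8 CPM to 7.84, 9.20 and 5.45 CPM, a log2 fold change of -2.32. TRAPPC9 (731 kb), a part of a vesicle tethering complex, fell by 2.72, and TBC1D5 (1290 kb), which acts on RAB7, by 2.4. RAD51B, described above, spans 910 kb and FANCC 328 kb. The median of the longest class was -0.86, -0.68 and -1.20 for the libraries numbered 1 to 3. In the other cells it was -0.99, -1.13 and -1.11, with 41.3%, 45.0% and 42.2% called lower. Across 11263 protein-coding genes Spearman's rho between span and log2 fold change was -0.40 in KO #11 cells and -0.35, -0.42 and -0.38 in the others. Genes are not independent replicates, and long genes also had lower levels, with a median of 12.3 CPM against 39.1 CPM for the shortest class, whose part in the difference was not tested.

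The remaining genes among the 12 lowest were of several kinds. RPL22L1, a paralog of the ribosomal protein RPL22, went from 405, 495 and 356 CPM to 70.7, 85.2 and 79.2 CPM, a log2 fold change of -2.42 (adjusted p = 0.00088). EREG, epiregulin, a ligand of the EGF receptor, went from 831, 913 and 781 CPM to 107, 140.0 and 178 CPM, a log2 fold change of -2.57 (adjusted p = 2.5e-05). PTPDC1, a phosphatase, fell by 2.55, and its log2 fold changes in the other cells were -0.38, 0.12 and -1.36. TSC22D3 (GILZ), a glucocorticoid-induced factor, fell by 2.29, from 138, 154 and 125 CPM to 16.3, 19.1 and 49.9 CPM, and its call held in 20 of the 24 fits without a library. The call of EREG and of RPL22L1 held in all 34 settings.

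Few ribosomal protein genes were called, 1.27% of the list against 9.51% of all genes tested. Of 79 tested 1 was called, RPL3, which fell from 4730, 4770 and 5140 CPM to 1930, 2050 and 2340 CPM, a log2 fold change of -1.21 (adjusted p = 0.008), and the median was 0.12. RPL3 fell by similar amounts in the other cells, with -1.23, -1.15 and -1.38. In rRNA synthesis and ribosome assembly 2 of 47 (4.26%) rose, POLR1C (0.88), a subunit shared by RNA polymerases I and III, and BYSL (0.69). The median was 0.14. Of 75 nuclear genes of OXPHOS 72 had a positive value, with a median log2 fold change of 0.42. Only NDUFS5 (1.11) and NDUFV3 (0.76) of complex I were called, 2.67% of the list. The count of calls was 11 without KO esiCT OXPT replicate 3, 7 with the replicate number as a block and 19 with only the groups compared (23 with the block as well). It was 0 without untreated replicate 1 or 3 or OXPT replicate 1 or 2, and 1 without untreated replicate 2. Over all genes 826, 1020, 1335 and 1465 were called higher in the settings that gave 11, 7, 19 and 23, in place of 734. Of the 13 genes of the mitochondrial genome none was called, and the median was 0.08.

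Further lists of stress, signalling and other genes held 8 to 30 tested members each, so that their shares of calls rest on few genes. Of all genes tested, 9.51% were called. The share was above this in the NRF2, interferon, Wnt and stem cell, and epithelial lists. It was below this in the cholesterol and fatty acid, basement membrane, HIF, NF-kB and platinum lists. Among 23 NRF2 targets, AKR1B10, an aldo-keto reductase, rose by 4.34 from 0.359 to 0.666 CPM up to about 10 CPM in each OXPT library, PRDX1, a peroxiredoxin, rose by 1.33, and SLC7A11 fell, the median being 0.18. PRDX1 went from 253, 267 and 350.0 CPM to 597, 728 and 862 CPM, and its log2 fold changes in the other cells were -0.12, 0.20 and 0.57. None of 25 HIF targets was called (median 0.18), nor any of 16 NF-kB targets (0.17) or of 13 genes of platinum transport and detoxification (-0.15). Of 19 interferon-stimulated genes 2 rose, TAP1 (1.69), a peptide transporter, and ISG15 (1.76), a ubiquitin-like protein, with a median of 0.29. Of 30 genes of cholesterol and fatty acid synthesis only SREBF1 was called, which fell by 0.84, and the median was -0.40. Of 14 Wnt and stem cell genes DKK1, a secreted Wnt inhibitor, rose by 2.04 and EPHB3 by 1.62, with a median of -0.35. Of 17 basement membrane genes COL18A1 fell by 1.57, and the median was 0.16. Of 8 tested epithelial markers KRT8 rose by 1.29, with a median of 0.34.

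The mRNAs of the class IIa HDACs did not pass. HDAC4 was at 21.6, 21.9 and 26.9 CPM untreated and at 18.5, 16.9 and 14.5 CPM with OXPT. The groups did not overlap, as in 42.5% of all genes tested. The log2 fold change of -0.50 (standard error 0.24) had an adjusted p of 0.214, and it was called in no setting. In the other cells it was -1.56, -1.48 and -1.29, and the difference of the response was 1.06, 0.99 and 0.80 on the log2 scale, none of them called. HDAC5 had a log2 fold change of 0.29 and HDAC7 of 0.20. Of 14 HDAC, corepressor and MEF2 genes HDAC11 rose by 0.86 and MEF2C fell by 1.54, both calls being lost when single libraries were left out, and the median was 0.05. These calls are 14.3% of the list, against 9.51% of all genes tested. FBXW7 mRNA rose from 15.5, 13.9 and 17.2 CPM to 38.5, 32.8 and 28.3 CPM, a log2 fold change of 1.09 (adjusted p = 0.028), and this call was lost without any of 5 of the 6 KO #11 libraries. Since the deleted part of the gene was not counted apart, this level does not check the deletion. FBXW7 was the only call among 14 parts of ubiquitin ligases (7.14%), where VHL (0.05) and CUL2 (-0.23), of the ligase that #11 recruits, did not pass.

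The responses of the 4 cell states share no library, but they come from 1 fit and so share its estimate of the spread. Of the 734 genes that rose in KO #11 cells, 51.9%, 55.6% and 54.9% were also called higher in the other cells, and of the 441 that fell 52.4%, 55.3% and 62.8% were called lower. In the reverse direction, 49.5%, 51.3% and 64% of the genes that rose in those cells, and 36.8%, 35.7% and 40.0% of those that fell, were called in KO #11. In all 4 states 296 genes rose and 198 fell. Across the 12356 genes Pearson's r of the log2 fold changes with KO #11 was 0.72, 0.74 and 0.81. The WT shares and r include WT untreated replicate 3 and were not computed without it. Leaving that library out moved the WT median of the ATF4 list from -0.99 to -0.05 and that of the immediate early list from 0.04 to 0.61. How much of the likeness to WT rests on it was not tested.

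The difference of the OXPT response between KO #11 and each of the other cells was then tested itself. By edgeR no gene was called against KO esiCT (0% of those tested), none against KO esiHDAC4 (0%) and 1 against WT (0.00809%), with 863, 687 and 449 genes below 0.05 before adjustment. DESeq2 called 36, 31 and 15. The gene called against WT was CAPN15, a calpain-like protease (ENSG00000103326.12, chromosome 16, 527712 to 554636). In KO #11 cells it was at 30, 26.6 and 28.5 CPM untreated and at 24.4, 19.4 and 19.7 CPM with OXPT, and in WT cells it went from 41.4 to 51.3 CPM down to 4.62 to 9.65 CPM. The difference was 2.17 on the log2 scale (standard error 0.34, adjusted p = 0.039). Against KO esiCT it was 1.67 and against KO esiHDAC4 1.64, neither of them called (adjusted p = 0.109 and 0.285).

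These tests depended on the library labelled WT untreated replicate 3, which enters the estimate of the spread in all of them. Without it 39, 66 and 44 genes were called, most of them lower in KO #11, 32, 59 and 39. JUN, CCN1, CCN2, ATF3 and DUSP5, all of the immediate early list, were called lower against all 3 of the other cells. Of the ATF4 list 1, 9 and 5 members were called lower, TRIB3 in each. Of the mitotic genes CDC25C alone was called, as higher against KO esiHDAC4. CCN1 differed by -3.47, -3.33 and -2.99 in the fit of all 24 libraries (standard errors 0.71, 0.70 and 0.70), and CCN2 by -2.99, -3.23 and -2.97. JUN differed by -3.39, -3.85 and -2.54. With the replicate number as a block 15, 2 and 0 genes were called, the numbers not pairing the KO #11 libraries with those of other groups.

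The other genes with the smallest p in these tests were of mixed function. BCAN, AMOTL2, AJUBA and MOSMO had lower responses than in KO esiCT cells, with differences of -2.13, -2.01, -1.76 and -1.39, and PWWP3A a higher one, with 1.20, all at an adjusted p of 0.109. PWWP3A fell by 1.39 in KO esiCT cells and had a log2 fold change of -0.19 in KO #11 cells. SLC7A1 differed from KO esiHDAC4 by -1.88. Against WT, PRDM16 differed by 2.64, GAS6 by 2.06, and AMOTL2 by -2.20. KIF26A, a kinesin-like protein, rose by 0.98 in KO #11 cells, from 14.3 to 16.5 CPM up to 27.5 to 33.6 CPM, and had log2 fold changes of -0.28, -0.05 and -0.41 in the others.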

How the data were processed

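RNA-seq libraries of HCT-116 cells were given as 36 tables of counts, 1 per library. Per the labels, reads were trimmed with Trimmomatic 0.39 and aligned to hg38 with STAR 2.7.11a, and the authors deposited raw read counts per gene in the column layout of STAR. The release of the annotation is not given in the sources used here, and the study's methods describe another route, with transcript quantification and DESeq2. The unstranded counts of 62757 genes were used, since reads fell about equally on both strands. Gene symbols and positions came from GENCODE 44 (62130 IDs matched with their version), promoters from RefSeq.

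Libraries were grouped by title and treatment, 8 groups of 3. Genes with a mean of at least 64 counts in any group were tested (12356) with edgeR 4.0.16 in R 4.3.3 by the quasi-likelihood test, with TMM scaling and 1 coefficient per group over the 24 libraries. Adjusted p-values are by Benjamini-Hochberg over all genes tested, and standard errors are approximate, from the F statistic. CPM values are TMM-normalized, except the marker sums, which are scaled to the library total alone, and all are relative to the library. The self-test ran on simulated counts. DESeq2 1.42.0, RLE scaling, other filters, reverse-strand counts, other sets of libraries, the replicate block and leaving out each library were the alternatives.

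The replicate numbers were checked for pairing: deviations from the group means correlated at 0.28 to 0.29 for the 3 pairs of KO #11 libraries of the same number, against -0.33 to 0.22 for the 6 pairs of other numbers, and at -0.47 to 0.18 for same-numbered libraries of KO #11 and other groups. Between the other groups, libraries of the same number correlated at 0.03 to 0.83. Whether the KO #11 libraries were prepared apart from the others was not tested. Named genes were the 12 highest and 12 lowest called genes as described in the report, up to 4 called members of each list with the smallest p and any members needed to explain a count, genes the study names (HDAC4, HDAC5, HDAC7, FBXW7, PMAIP1, BBC3, CDKN1A, MDM2), and, for each test of a difference, the 5 with the smallest p. The comparison and the 28 gene lists were chosen with earlier results of these data known, and the list of YAP and TEAD targets was added after its values were seen. The 12 WT libraries with contradictory labels were left out. Some single genes of the lists are not reported here.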

Additional observations from a re-analysis of the deposited data

Results flagged for a closer look

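CAPN15 was the only gene whose OXPT response in KO #11 cells differed from that of another cell state by edgeR's quasi-likelihood test on all 24 libraries. The difference, KO #11 minus WT, was 2.17 on the log2 scale (adjusted p = 0.039), with log2 fold changes of -0.42 in KO #11 and -2.59 in WT cells. All 3 untreated KO #11 libraries lay below all untreated libraries of the other cells, and all 3 OXPT libraries lay above all OXPT libraries of the other cells. The call held in 5 of 9 other settings and in 7 of the 24 fits that leave out a library.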

How the results depend on the processing

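The count of genes called in KO #11 cells (1175, of which 62.5% higher) was 2636 (50.6% higher) with only the groups compared, 3011 (48.7%) with only these groups and the replicate block and 2847 (47.0%) when number 3 was dropped from all groups, an alternative chosen after seeing the data, and 555 to 1494 when single libraries were left out. The replicate block over 24 libraries gave 1713. The genes called for a difference from KO esiCT (0) were 65 with no count filter, 36 with DESeq2, 71 with the 18 KO libraries, 20 with only the groups compared, 11 with these and the replicate block, 15 with the replicate block, 244 with number 3 left out and 0 to 39 without single libraries. From KO esiHDAC4 (0) they were 81, 31, 74, 97, 91, 2, 307 and 0 to 66 in the same order. From WT (1) they were 0 with reverse-strand counts, 16 with no count filter, 15 with DESeq2, 0 with only the groups compared, with or without the replicate block, 0 with the block alone, 232 with number 3 left out and 0 to 44 without single libraries. The cause was not tested, beyond the fewer libraries or other genes that each setting holds. Without WT untreated replicate 3, an alternative chosen after seeing the data, the WT response had 2105 calls in place of 1322, and without KO esiCT OXPT replicate 3 it had 1568. Of the 69 named genes called in KO #11 cells, 42 kept the call and all 69 kept their sign in every setting that gave a value. With 3 libraries a group, counts of calls depended on single libraries more than directions did.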
